A study of Mus musculus with 12 samples.

Results

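The 46 genes described here are the aldehyde dehydrogenases and glutathione transferases of the mouse, measured in corneas injured with a preservative, with and without cord blood products. They were chosen by symbol alone, as every gene of the count table named Aldh, Gsta, Gstk, Gstm, Gsto, Gstp, Gstt, Gstz or Mgst followed by a digit, and they are 46 of 19702 genes: 21 aldehyde dehydrogenases and 25 glutathione transferases. The symbol rule itself uses no measured value, but it was set with earlier results of these data known. Of the 46, 42 had enough counts to be tested. The other 4, Aldh3b3, Aldh8a1, Gstm3 and Gstt4, had group means of at most 0.2075 CPM (counts per 1 M counts) and were not tested.

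RNA was sequenced from 12 libraries of mouse cornea in 4 groups of 3, and each library was a pool of 6 corneas from 3 mice. UCPRP corneas and UCS corneas had been injured with benzalkonium chloride (BAK, the preservative of many eye drops) and given one of a pair of cord blood-derived biologics, whose abbreviations the sources used here do not spell out. Vehicle corneas had the same injury and, per the labels, no treatment; Control corneas were uninjured and untreated. BAK was given as 5 µl of a 0.2% solution to each eye once a day for 14 days, and UCPRP or UCS as 5 µl at 20%, 3 times a day for 10 days. The strain, sex and age of the mice, the time of harvest, the order of injury and treatment days, and whether Vehicle corneas received drops after BAK were not stated in the sources used here.

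Aldehyde dehydrogenases oxidise reactive aldehydes, such as those that oxygen and ultraviolet light form from membrane lipids, to less reactive acids, and some members work instead in vitamin A, folate and amino acid metabolism. Glutathione transferases join the tripeptide glutathione to electrophilic compounds, so that the conjugates can be exported from the cell. The corneal epithelium of mammals holds so much aldehyde dehydrogenase 3A1 that the protein has been called a corneal crystallin, and it is known there as an absorber of ultraviolet light and a scavenger of lipid aldehydes.

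The libraries held 18.55 M to 20.44 M estimated counts each, and 3 counts, the most that a count of 0 allows, were 0.147 to 0.178 CPM, for counting error only. Krt12, the keratin of the differentiated corneal epithelium, was the most abundant gene in the 3 Control libraries (15902 to 32870 CPM) and lay between 7.18 and 23.94 CPM in the 3 Vehicle libraries. Besides Aldh3a1, 6 of 11 tested corneal epithelial markers were lower in Vehicle than in Control and none was higher; their summed level was 13990 to 17592 CPM in Vehicle and 38648 to 73416 CPM in Control. Of 14 conjunctival and goblet cell markers 11 were higher in Vehicle, with sums of 14008 to 20318 CPM in Vehicle and 2886 to 6629 CPM in Control, and of 12 macrophage markers 11 were higher, with 1135 to 1463 CPM in Vehicle and 387.3 to 576.9 CPM in Control. Of 5 tested neutrophil markers 4 were higher (80.97 to 427.5 CPM in Vehicle and 10.76 to 17.6 CPM in Control, summed over 8), and of 6 vessel markers 3 were higher. No marker of these lists was at 0 counts in all 12 libraries, and what these cell types contributed to the changes below was not tested. In whole tissue, fewer cells of a type and less RNA per cell cannot be told apart. Transcripts of the lens varied between libraries of the same group, from 63.44 to 28730 CPM over all libraries, and clock genes split the libraries into 8 with more Dbp than Arntl and 4 with more Arntl than Dbp: UCS replicate 1, Vehicle replicates 1 and 2, and Control replicate 3.

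The family was dominated by 3 genes. Per kilobase of exon, Gsto1 averaged 10096 CPM per kb over the 12 libraries, which placed it first of 18811 genes with a length, Gsta4 averaged 2086 CPM per kb and stood at rank 12, and Aldh3a1 averaged 2047 CPM per kb and stood at rank 13. By group, Gsto1 averaged 11448 CPM per kb in UCPRP, 11564 in UCS, 9203 in Vehicle and 8168 in Control. Gsta4 averaged 1838 CPM per kb in UCPRP, 1842 in UCS, 1347 in Vehicle and 3318 in Control. Aldh3a1 averaged 964.2 CPM per kb in UCPRP, 823.9 in UCS, 524.8 in Vehicle and 5877 in Control, so it stood above Gsta4 in Control and below it in the 3 injured groups. Gsto1 encodes omega-class glutathione transferase 1, which reduces dehydroascorbate and mixed disulphides, and Gsta4 encodes an alpha-class enzyme with high activity toward the lipid aldehyde 4-hydroxynonenal. The 46 genes together took 2.38% to 3.34% of counts in UCPRP libraries, 2.46% to 3.65% in UCS libraries, 1.96% to 2.77% in Vehicle libraries and 2.62% to 4.2% in Control libraries, so the groups overlapped. Without Gsto1 the remaining 45 took 0.535% to 0.755% in UCPRP, 0.501% to 0.756% in UCS, 0.408% to 0.578% in Vehicle and 1.26% to 2.16% in Control, and every Control library lay above every injured one. The 20 aldehyde dehydrogenases other than Aldh3a1 took 0.123% to 0.129% of counts in UCPRP, 0.117% to 0.129% in UCS, 0.116% to 0.131% in Vehicle and 0.123% to 0.137% in Control. Those ranges overlapped in all groups.

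**Figure D1:**
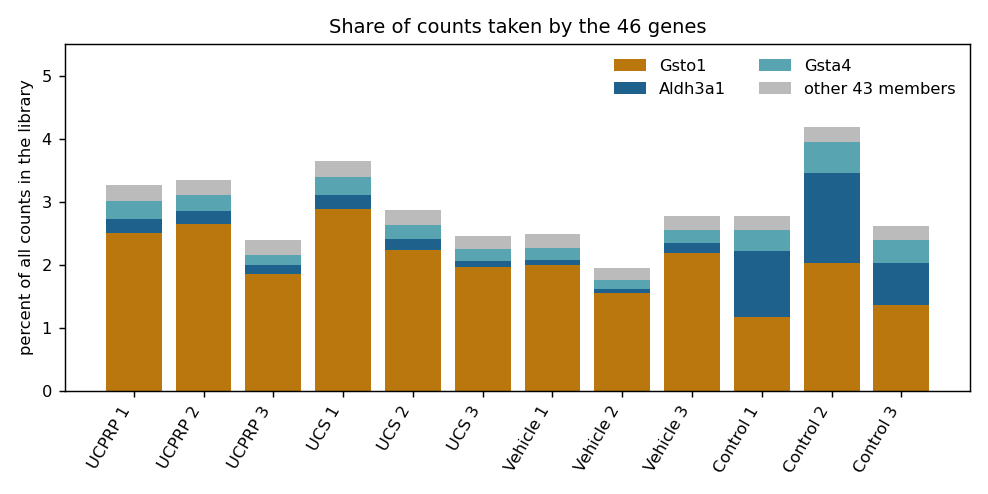
Percent of all counts in each library taken by Gsto1, Aldh3a1, Gsta4 and the other 43 genes, with libraries grouped as UCPRP, UCS, Vehicle and Control. Aldh3a1 took 0.675% to 1.43% of counts in Control libraries and 0.0698% to 0.216% in the 9 injured libraries, while the other 43 genes together stayed between 0.197% and 0.256% in all 12.

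How BAK injury changed these enzymes was read from Vehicle against Control. The main corneal aldehyde dehydrogenase, Aldh3a1, fell most. The alpha-class genes Gsta4 and Gsta2 and the retinaldehyde dehydrogenase Aldh1a1 were lower too, while a low-abundance pi-class gene, Gstp3, appeared, and Aldh1a3, Aldh1l2 and Aldh18a1 rose. Of the 42 tested genes 14 were called at an adjusted p under 0.05 by the quasi-likelihood test of edgeR with Benjamini-Hochberg adjustment over 16124 genes, 4 higher and 10 lower in Vehicle, which is 33.3% of the members beside 16.5% of all genes tested. The higher calls were 9.52% of the members, beside 9.58% of all genes, and the lower calls were 23.8%, beside 6.92%. The median log2 fold change was −0.23 over the 42 and −0.0013 over all genes tested. The Vehicle and Control libraries did not overlap for 19 of the 42 genes (45.2%), beside 30.6% of all genes.

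Aldh3a1 (Entrez 11670, chr11:61208510-61218418 in GRCm38.p6, protein-coding) had 916, 654.4 and 1487 CPM in the Vehicle libraries, against 10217, 17376 and 6644 CPM in the Control libraries. The lowest Control library held more than 4 times as much as the highest Vehicle library, and the groups did not overlap. The mean was 1019 ± 426 CPM in Vehicle and 11412 ± 5465 CPM in Control (SD, n = 3 each), 11.2-fold lower in Vehicle (log2 fold change −3.49 ± 0.45 SE, with an edgeR adjusted p = 0.000459). Among all genes Aldh3a1 stood at rank 87, 125 and 38 in the Vehicle libraries and at rank 4, 4 and 5 in the Control libraries. Aldh3a2, the fatty aldehyde dehydrogenase encoded next to it (chr11:61223417-61267528), averaged 52.78 CPM in Vehicle and 51.79 CPM in Control (log2 fold change 0.03, adjusted p = 0.885 by edgeR). Within the libraries where Dbp exceeded Arntl, Aldh3a1 had 1487 CPM in the 1 Vehicle library and a mean of 13797 CPM in 2 Control libraries; among the others it had a mean of 785.2 CPM in 2 Vehicle libraries and 6644 CPM in the 1 Control library.

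Among the remaining enzymes of lipid aldehydes, Gsta4 (Entrez 14860, chr9:78191966-78209349) had 1802, 1326 and 1989 CPM in Vehicle, against 3230, 5903 and 3471 CPM in Control. Its groups did not overlap (log2 fold change −1.30 ± 0.30 SE, with an edgeR adjusted p = 0.0117), though without Vehicle replicate 2 the call was lost. Gsta2 (Entrez 14858, chr9:78331018-78347192), an alpha-class gene of the same cluster, had 21.47, 14.21 and 26.45 CPM in Vehicle, against 67.36, 116.7 and 77.82 CPM in Control. It fell 4.21-fold (log2 fold change −2.08 ± 0.37 SE, with an edgeR adjusted p = 0.00288), again with no overlap. Of the 75-base stretches of its transcripts 33.5% also occurred in another gene, so its counts are less certain than those of Gsta4 or Aldh3a1, which shared none. Aldh3b2, a lipid-associated fatty aldehyde dehydrogenase in mouse, had 193.9, 141.1 and 191 CPM in Vehicle, against 244.9, 403.5 and 254.4 CPM in Control (log2 fold change −0.78, adjusted p = 0.0275 by edgeR). Those groups did not overlap either, and 18.3% of its 75-base stretches were shared, nearly all with Aldh3b3. Its call was lost in 5 of 22 alternative settings: without Control replicate 2, without Vehicle replicate 2, with a replicate block, with clock phase as a term and in the 2-group fit.

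The retinaldehyde dehydrogenases, which make retinoic acid from vitamin A, moved apart. Aldh1a1 (Entrez 11668, chr19:20492583-20643463) had 78.04, 100.5 and 104 CPM in Vehicle, against 247.6, 268.7 and 280.1 CPM in Control. The groups stood far apart relative to their spread, with 94.18 ± 14.1 CPM in Vehicle and 265.5 ± 16.5 CPM in Control (log2 fold change −1.50 ± 0.28 SE, with an edgeR adjusted p = 0.004). Aldh1a3 (Entrez 56847, chr7:66390892-66427477) had 468.3, 348.2 and 277.3 CPM in Vehicle, against 138.6, 236 and 180.6 CPM in Control. All Vehicle libraries lay above all Control libraries (log2 fold change 0.98 ± 0.22 SE, with an edgeR adjusted p = 0.00907). On the per-length scale Aldh1a3 averaged 78.97 CPM per kb in Vehicle and 40.08 CPM per kb in Control, and Aldh1a1 averaged 19.08 CPM per kb in Vehicle and 53.77 CPM per kb in Control, so the more abundant of the pair was Aldh1a3 in Vehicle and Aldh1a1 in Control. Aldh1a2, the other enzyme of this class, averaged 14.37 ± 6.28 CPM in Vehicle and 12.84 ± 1.54 CPM in Control, with overlapping libraries.

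Among the aldehyde dehydrogenases of folate and amino acid metabolism 3 were called. Aldh1l2 (Entrez 216188, chr10:83487447-83534146), the mitochondrial 10-formyltetrahydrofolate dehydrogenase, had 8.207, 9.085 and 6.586 CPM in Vehicle, against 3.811, 2.194 and 2.589 CPM in Control (log2 fold change 1.47 ± 0.30 SE, with an edgeR adjusted p = 0.00591). Its groups did not overlap. Aldh1l1, the cytosolic enzyme of the same reaction, averaged 24.7 CPM in Vehicle and 28.43 CPM in Control and was not called. Aldh18a1 (chr19:40550257-40588463), which makes the precursor of proline from glutamate, averaged 33.84 ± 2.03 CPM in Vehicle and 20.88 ± 2.59 CPM in Control (log2 fold change 0.70 ± 0.12 SE, with an edgeR adjusted p = 0.00185). Aldh4a1, which runs in the opposite direction of proline metabolism, averaged 35.14 CPM in Vehicle and 38.76 CPM in Control and was not called. Aldh6a1, an enzyme of valine breakdown, averaged 53.61 CPM in Vehicle and 82.23 CPM in Control and fell (log2 fold change −0.62, adjusted p = 0.0126 by edgeR).

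Among glutathione transferases, Gstp3 (Entrez 225884, chr19:4057470-4059605) was at the limit of detection in Control and present in every injured library. It had 55, 59 and 33 counts in Vehicle, against 2, 0 and 6 counts in Control, that is 147 counts in all in Vehicle and 8 in Control, with no overlap. The ratio of these sums was 17.2 (95% exact interval 8.5 to 40.6, counting error only), and the fitted log2 fold change was 4.06 (SE 0.69, adjusted p = 0.00201 by edgeR). Its pi-class relative Gstp1, which lies in the same cluster, averaged 180.8 ± 8.3 CPM in Vehicle and 198.3 ± 56.3 CPM in Control and was not called; per kilobase, Gstp3 averaged 2.719 CPM per kb in Vehicle and Gstp1 averaged 116.8 CPM per kb there. Gstp3 shared no 75-base stretch with another gene, whereas 44.5% of those of Gstp1 also occurred in Gstp2.

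The other lower calls among glutathione transferases were modest. Gstt3 averaged 24.43 CPM in Vehicle and 42.2 CPM in Control, Gstk1, the kappa-class enzyme of mitochondria and peroxisomes, averaged 10.26 CPM in Vehicle and 17.18 CPM in Control, and Mgst3, a membrane-bound enzyme, averaged 66.36 CPM in Vehicle and 107.7 CPM in Control. Gstz1, which acts in tyrosine breakdown, averaged 31 CPM in Vehicle and 41.61 CPM in Control. Their log2 fold changes lay between −0.79 and −0.42, with adjusted p from 0.0155 to 0.0492 by edgeR, and each of the 4 calls was lost without Control replicate 2 and without Vehicle replicate 1 or 2. Gstz1 kept its call in 6 of 22 alternative settings. Of the 75-base stretches of Gstt3 19.1% also occurred in another gene.

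Gsto1 (chr19:47854973-47864790) had 20003, 14530 and 21317 CPM in Vehicle, against 11499, 24673 and 13402 CPM in Control. The Control libraries spanned the Vehicle ones, and no difference was detected (log2 fold change 0.17 ± 0.32 SE, with an edgeR adjusted p = 0.794). By CPM it was the most abundant of all genes in each of the 9 injured libraries and stood at rank 3, 2 and 2 in the Control libraries. Gsta3, another alpha-class gene, had 191.1, 133.5 and 190.7 CPM in Vehicle, against 128.1, 203.9 and 184.3 CPM in Control, and was not called.

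**Figure D2:**
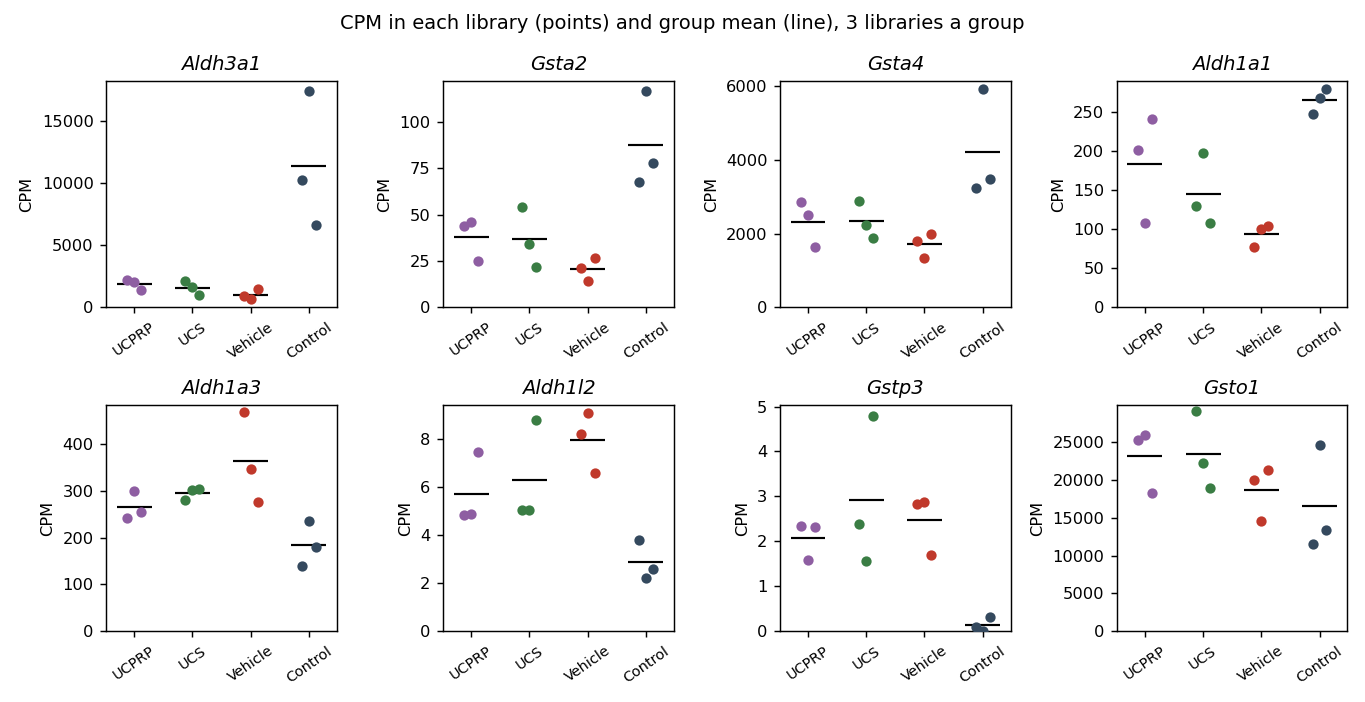
Levels in CPM of 8 genes in each of the 12 libraries, with groups in the order UCPRP, UCS, Vehicle and Control and a bar at each group mean. Aldh3a1 in the 9 injured libraries reached at most 2172 CPM, below the lowest Control library at 6644 CPM, whereas the Gsto1 libraries of all groups overlapped.

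**Figure D3:**
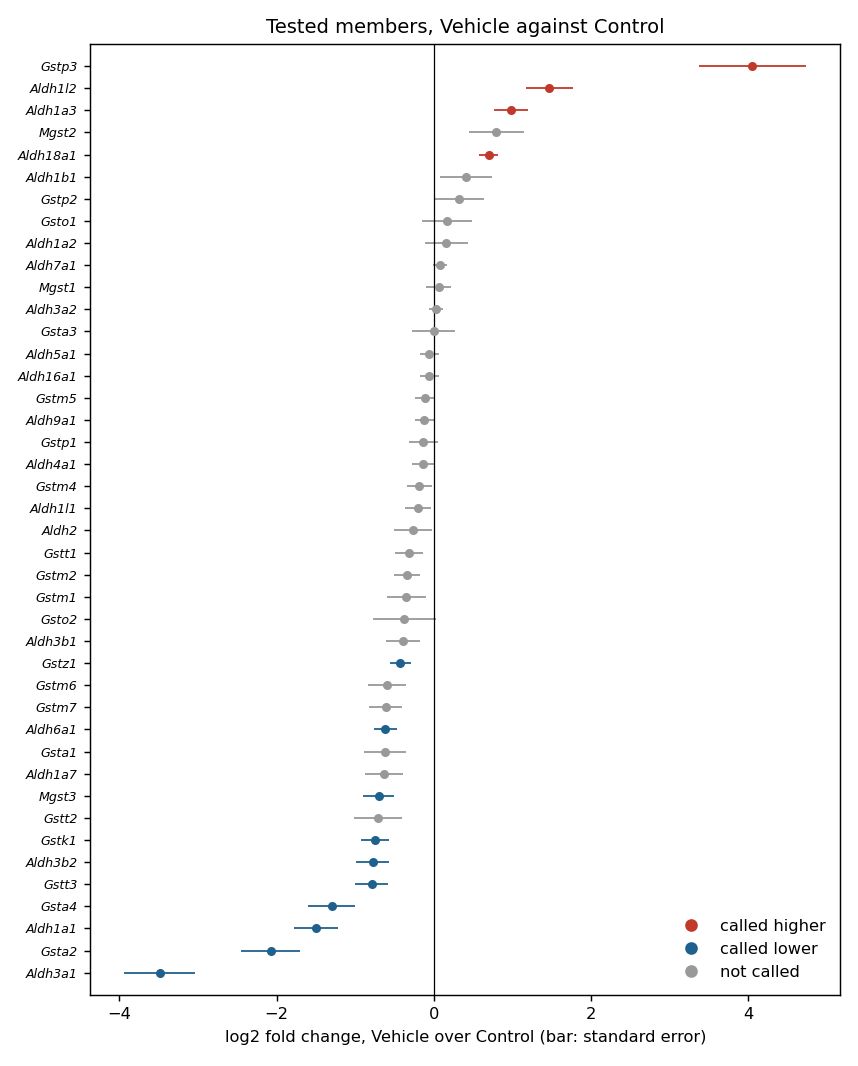
Log2 fold change of Vehicle over Control, with its standard error as a bar, for the 42 tested genes. The 10 lower calls run from −3.49 for Aldh3a1 to −0.42 for Gstz1, and the 4 higher calls run from 0.70 for Aldh18a1 to 4.06 for Gstp3.

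Promoter windows of 5 genes are printed because they hold the start sites of the most strongly raised member, of a called alpha-class member and of a pair of neighbouring, closely related genes; apart from Gstp3 they were picked after the values were seen. Each runs 5′ to 3′ on the gene's strand, from 250 bases before to 50 bases after a start annotated by RefSeq on GRCm38.p6, and capitals mark matches, on either strand, of TGANNNNGC, the core of the antioxidant response element bound by NRF2, and of GCGTG, the core of the xenobiotic response element bound by the aryl hydrocarbon receptor. The Gstp3 window is chr19:4059398-4059697 (minus strand), the Gstp1 window chr19:4037863-4038162 (minus strand) and the Gsta2 window chr9:78347096-78347395 (minus strand). The Aldh1a1 window, at the inner of its annotated starts, is chr19:20601718-20602017 (plus strand), and the Aldh1a7 window is chr19:20727507-20727806 (minus strand).
Gstp3: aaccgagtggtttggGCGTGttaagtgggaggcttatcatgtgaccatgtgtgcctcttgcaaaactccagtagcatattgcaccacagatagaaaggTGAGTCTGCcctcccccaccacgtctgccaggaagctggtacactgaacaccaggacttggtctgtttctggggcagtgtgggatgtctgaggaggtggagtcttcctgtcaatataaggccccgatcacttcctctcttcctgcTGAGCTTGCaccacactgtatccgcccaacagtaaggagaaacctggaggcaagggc
Gstp1: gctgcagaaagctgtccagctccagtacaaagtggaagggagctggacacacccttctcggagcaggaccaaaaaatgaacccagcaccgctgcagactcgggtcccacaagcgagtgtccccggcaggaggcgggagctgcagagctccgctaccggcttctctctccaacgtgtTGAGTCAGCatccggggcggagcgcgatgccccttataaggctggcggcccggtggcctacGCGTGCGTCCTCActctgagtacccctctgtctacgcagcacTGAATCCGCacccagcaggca
Gsta2: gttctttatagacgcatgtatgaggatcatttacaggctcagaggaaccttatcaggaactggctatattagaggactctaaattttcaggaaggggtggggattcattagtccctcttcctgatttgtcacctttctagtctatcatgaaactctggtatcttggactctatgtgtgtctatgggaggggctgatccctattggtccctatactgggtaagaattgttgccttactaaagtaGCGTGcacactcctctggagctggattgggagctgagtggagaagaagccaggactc
Aldh1a1: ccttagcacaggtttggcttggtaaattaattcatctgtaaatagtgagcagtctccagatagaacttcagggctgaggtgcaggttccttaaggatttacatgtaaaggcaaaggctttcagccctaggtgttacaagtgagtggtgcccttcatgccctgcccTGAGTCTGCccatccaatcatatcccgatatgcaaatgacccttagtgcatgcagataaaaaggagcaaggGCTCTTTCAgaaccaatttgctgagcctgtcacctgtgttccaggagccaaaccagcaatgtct
Aldh1a7: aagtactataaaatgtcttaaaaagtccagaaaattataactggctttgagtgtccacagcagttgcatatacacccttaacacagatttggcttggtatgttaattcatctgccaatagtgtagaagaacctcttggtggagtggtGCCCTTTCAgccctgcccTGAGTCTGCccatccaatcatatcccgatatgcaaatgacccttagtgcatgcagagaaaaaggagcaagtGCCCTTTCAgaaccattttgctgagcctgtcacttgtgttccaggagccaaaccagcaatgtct
The Gstp3 window held 2 matches of TGANNNNGC and 1 of GCGTG, and the Gstp1 window held 3 of TGANNNNGC and 1 of GCGTG, of which 1 pair overlaps by 1 base. The Gsta2 window held 1 match of GCGTG. The Aldh1a1 window held 2 matches of TGANNNNGC and the Aldh1a7 window 3, and 59% of the positions of these windows were identical. Of the 46 genes 38 had promoter entries, with 49 windows, and Aldh3a1, the gene that fell most, had none. The Gsto1 window, not printed here, held 0 matches of TGANNNNGC and 0 of GCGTG. TGANNNNGC was in 53.1% of the 49 windows and in 41.3% of 32851 promoters of the same length. GCGTG was in 30.6% of the 49 and in 32.4% of all. A match is a run of letters and not a measured binding site.

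After UCPRP, 0 of the 42 genes were called against Vehicle by edgeR, as were 0% of all genes tested. Levels of 35 of the 42 were above Vehicle and 7 below, with a median log2 difference of 0.17, beside 0.03 over all genes, and 9 (21.4%) had an unadjusted p under 0.05, beside 9.75% of all genes. DESeq2 and limma-voom called 0 of the 42 as well, while over all genes DESeq2 called 145 (0.917%) and limma-voom 0. The UCPRP and Vehicle libraries did not overlap for 10 of the 42 genes (23.8%), beside 13.8% of all genes, and 9 of those 10 were above Vehicle (21.4% of the members, beside 6.68% of all genes above and 7.13% below). These 9 included Aldh1a1, Aldh1a7 and the mu-class genes Gstm1, Gstm2, Gstm5, Gstm6 and Gstm7. The other tested mu-class gene, Gstm4, overlapped Vehicle (log2 fold change −0.05). Gstm1 shared 12.3% of its 75-base stretches with other genes, Gstm6 4.34% and Gstm2 2.77%, while Gstm5 and Gstm7 shared none.

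Aldh1a1 had 201.3, 108.8 and 241 CPM after UCPRP, against 78.04, 100.5 and 104 CPM in Vehicle. The lowest UCPRP library was only just above the highest Vehicle library, and the log2 fold change of 0.96 (SE 0.28) had an adjusted p of 0.359 by edgeR. Gstm1, a mu-class transferase, had 260.1, 182 and 314.6 CPM after UCPRP, against 144.2, 125.3 and 159.2 CPM in Vehicle, with a log2 fold change of 0.82 (SE 0.25, adjusted p = 0.359 by edgeR). Aldh1a7 (chr19:20692953-20727556), the neighbour and close copy of Aldh1a1, had 20.33, 13.25 and 20.15 CPM after UCPRP, against 11.3, 8.743 and 10.77 CPM in Vehicle. The summed lens transcripts of the UCPRP libraries were 3144, 301.7 and 28730 CPM in the same replicate order, so that both Aldh1a1 and Gstm1 were highest in the UCPRP library richest in lens RNA and lowest in the poorest. With lens level as a term in the fit, the log2 fold change of UCPRP over Vehicle was 0.78 for Aldh1a1 and 0.71 for Gstm1.

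Aldh3a1 had 2172, 2036 and 1409 CPM after UCPRP, against 916, 654.4 and 1487 CPM in Vehicle. The ranges overlapped through the highest Vehicle library, and the log2 fold change was 0.88 (SE 0.42, adjusted p = 0.528 by edgeR). Every UCPRP library had more Dbp than Arntl, but among the Vehicle libraries only that highest library did. With clock phase as a term in the fit, the log2 fold change of Aldh3a1 was 0.67 (SE 0.46). That imbalance is shared by every gene in UCPRP against Vehicle, and what clock phase contributed was not tested. Corneal epithelial markers other than Aldh3a1 summed to 21134, 19221 and 16399 CPM in UCPRP replicates 1 to 3. Their Vehicle sums were 13990 to 17592 CPM. Among these markers, Krt12 had 185.6, 7.548 and 3.29 CPM in the same UCPRP replicates. What corneal epithelial content contributed to the Aldh3a1 values was not tested. Gsto1 had 25245, 26002 and 18232 CPM after UCPRP, overlapping its Vehicle values, and Gsta4 had 2847, 2510 and 1624 CPM, which also overlapped. Aldh1a3 had 243.3, 301 and 254.7 CPM and Gstp3 had 44, 31 and 45 counts after UCPRP. Both overlapped their Vehicle values. Aldh18a1, one of the members that rose with injury, averaged 27.22 ± 3.52 CPM after UCPRP and 33.84 ± 2.03 CPM in Vehicle, without overlap (log2 fold change −0.31 ± 0.12 SE, with an edgeR adjusted p = 0.432).

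After UCS, 0 of the 42 genes were called against Vehicle by edgeR, DESeq2 or limma-voom, as were 0% of all genes tested by edgeR; 4 (9.52%) had an unadjusted p under 0.05, beside 4.85% of all genes. DESeq2 called 13 of all genes (0.0806%) and limma-voom 0. Levels of 33 were above Vehicle and 8 below, and the log2 fold change of Aldh16a1 rounded to 0. The median log2 difference was 0.19, beside −0.0071 over all genes. The libraries did not overlap for 5 (11.9%), beside 9.46% of all genes. Aldh3a1 had 2150, 1685 and 965.1 CPM after UCS, overlapping Vehicle, with a log2 fold change of 0.65 (SE 0.41). Aldh1a1 had 130.5, 198.5 and 108.4 CPM after UCS, all above the Vehicle libraries (log2 fold change 0.63 ± 0.28 SE, with an edgeR adjusted p = 1). Its highest UCS library was the one richest in lens transcripts, at 13230 CPM, beside 63.44 and 69.4 CPM in the others. Gstm1 was highest, at 242 CPM, in the UCS library with the least lens RNA. In Vehicle the library with 10008 CPM of lens transcripts had the lowest Gstm1, 125.3 CPM, and an Aldh1a1 level between those of the others, 100.5 CPM.

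Gsta2 had 54.2, 34.28 and 21.5 CPM after UCS, and Gsta4 had 2873, 2230 and 1892 CPM, both overlapping Vehicle. Gsto1 had 29070, 22217 and 18897 CPM, and its lowest UCS library lay inside the Vehicle range. Gsta3 had 329, 203.7 and 172.7 CPM after UCS, Aldh3b2 had 237.7, 184.9 and 198 CPM, and Aldh1a3 had 280.8, 303.1 and 304.6 CPM. Each overlapped Vehicle. Mgst2, a membrane enzyme that can make leukotriene C4, averaged 5.661 ± 2.26 CPM after UCS and 3.14 ± 0.534 CPM in Vehicle without overlap (log2 fold change 0.85, adjusted p = 1 by edgeR).

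Between the biologics themselves, UCPRP against UCS, edgeR, DESeq2 and limma-voom called 0 of the 42, edgeR called 0% of all genes, and 1 gene, Aldh1a7 (2.38% of the members), had an unadjusted p under 0.05, beside 2.44% of all genes. The log2 fold change of Aldh3a1 was 0.23 (SE 0.41), an error that leaves room for differences in either direction.

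**Figure D4:**
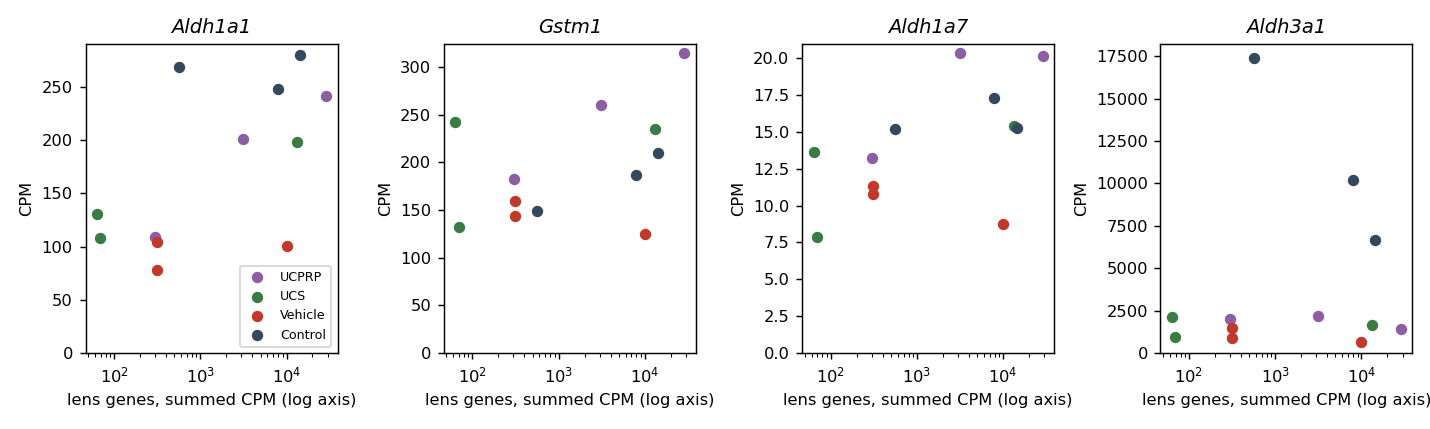
Levels in CPM of Aldh1a1, Gstm1, Aldh1a7 and Aldh3a1 plotted against the summed CPM of 15 lens genes, on a log axis, for the 12 libraries. Within UCPRP the library with the most lens RNA, 28730 CPM, also had the most Aldh1a1, 241 CPM, while all 3 Control libraries had 247.6 to 280.1 CPM of Aldh1a1 at lens sums from 563.7 to 14330 CPM.

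The last pair of comparisons sets the treated corneas against uninjured Control and shares those 3 Control libraries with the comparison of Vehicle and Control. Against Control 3 of the 42 genes were called after UCPRP by edgeR, 2 higher and 1 lower (7.14%, beside 10.4% of all genes, of which 5.3% higher and 5.07% lower), and 6 were called after UCS, 3 higher and 3 lower (14.3%, beside 10.9% of all genes, of which 6.4% higher and 4.47% lower). Aldh3a1 remained 6.1-fold lower than in Control after UCPRP (1872 ± 407 CPM, log2 fold change −2.61 ± 0.44 SE, with an edgeR adjusted p = 0.00334) and 7.13-fold lower after UCS (1600 ± 597 CPM, log2 fold change −2.83 ± 0.44 SE, with an edgeR adjusted p = 0.00199). The Control mean beside these was 11412 ± 5465 CPM. Gstp3 remained higher, at 2.084 ± 0.427 CPM after UCPRP and 2.915 ± 1.69 CPM after UCS, beside 0.1379 ± 0.158 CPM in Control. Mgst2 was called higher after each product, with 4.668 CPM after UCPRP, 5.661 CPM after UCS and 1.812 CPM in Control (adjusted p = 0.0291 after UCPRP and 0.0107 after UCS by edgeR). The Mgst2 call after UCPRP was lost in 6 of the 22 alternative settings: with a replicate block, in the 2-group fit, and without Control replicate 1, Control replicate 2, UCPRP replicate 1 or UCPRP replicate 2. After UCS, Aldh1l2 was also higher than in Control, and Gsta2 and Gstk1 were lower. Aldh3a1, Gstp3 and Mgst2 kept their calls after UCS in all 22 alternative settings. In the same comparison Aldh1l2 lost its call in 6 of these settings, Gstk1 in 4 and Gsta2 in 13. The replicate block was among those for Aldh1l2 and Gsta2. Aldh1a1, Aldh1a3 and Gsta4 were not called by edgeR against Control after either product, but DESeq2 called all 3 after UCS and Gsta4 after UCPRP. None of these 3 overlapped its Control libraries after either product, so a missing call does not show a return to the Control level. Their log2 fold changes after UCPRP and UCS were −0.531 and −0.865 for Aldh1a1, 0.525 and 0.679 for Aldh1a3, and −0.852 and −0.849 for Gsta4.

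**Figure D5:**
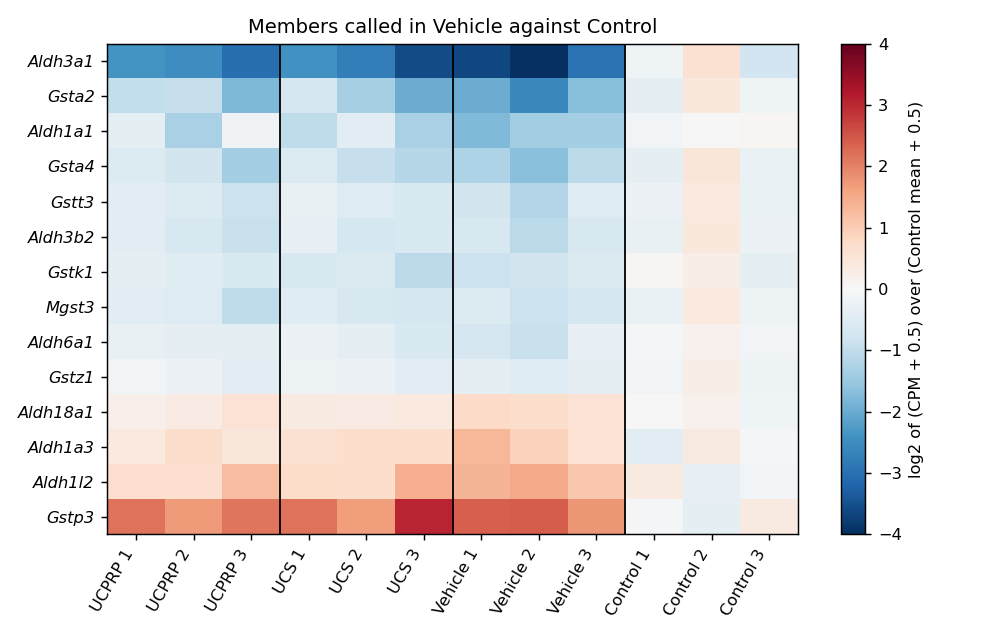
Colour scale of log2 of (CPM + 0.5) over (mean Control CPM + 0.5) for the 14 genes called in Vehicle against Control, in each of the 12 libraries with groups in the order UCPRP, UCS, Vehicle and Control. Aldh3a1 is low and Gstp3 high in all 9 injured libraries, whereas Aldh1a1 varies among the treated libraries, from 108.4 to 241 CPM.

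The genes that supply and use the same substrates were read from lists of neighbouring pathways, each set beside 9.58% of all genes called higher and 6.92% called lower in Vehicle against Control. Of 24 tested genes of glutathione synthesis and recycling 5 were higher in Vehicle and none lower. They included Gsr, glutathione reductase, with 59.48 CPM in Vehicle and 27.37 CPM in Control (log2 fold change 1.12). Dpep2, a dipeptidase that acts on leukotrienes (log2 fold change 1.83), and Ggt5, a gamma-glutamyltransferase (1.10), were also among them. Of 6 glutathione peroxidases 1 was higher, Gpx7 of the endoplasmic reticulum (log2 fold change 1.05), and none was lower.

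Other enzymes of aldehydes and alcohols split in both directions, with 4 of 23 higher and 9 lower in Vehicle. Ptgr1, a reductase of prostaglandins and of lipid aldehydes, had 49.49 CPM in Vehicle and 326.6 CPM in Control (log2 fold change −2.72, adjusted p = 0.000676 by edgeR). Adh6b, of the alcohol dehydrogenase family, had 1.47 CPM in Vehicle and 30.62 CPM in Control (−4.38). Akr1c18, the mouse 20-alpha-hydroxysteroid dehydrogenase, had 35.69 CPM in Vehicle and 3.97 CPM in Control (3.18).

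Of 22 retinoid genes 3 were higher and 2 lower in Vehicle. Crabp2, which carries retinoic acid to its nuclear receptor, had 57.35 CPM in Vehicle and 5.065 CPM in Control (log2 fold change 3.50, adjusted p = 0.000265 by edgeR), and its relative Crabp1 had 18.23 CPM in Vehicle and 5.512 CPM in Control (1.73). Dhrs9, a retinol dehydrogenase, had 132 counts over the Vehicle libraries and 2 over the Control libraries, a ratio of 61.7 (95% exact interval 16.8 to 515, counting error only).

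Of 21 genes for conjugate export and other conjugating enzymes 7 were higher and 5 lower. The 3 that the naming rule picks by largest change all rose. Outside that rule, mean CPM in Vehicle and Control was 49.47 and 98.43 for Hpgds and 35.55 and 80.7 for Ephx2. It was 25.77 and 53.99 for Nqo1, and 19.32 and 43.37 for Ugt1a6a. Abcc3, an exporter of glutathione and glucuronide conjugates, had 6.008 CPM in Vehicle and 1.16 CPM in Control (log2 fold change 2.36), Alox5ap, which serves leukotriene synthesis in myeloid cells, had 19.86 CPM in Vehicle and 3.67 CPM in Control (2.44), and Ugt1a1, a glucuronosyltransferase that shares exons with its Ugt1a relatives and is therefore less certain, had 1.914 CPM in Vehicle and 0.7593 CPM in Control (1.33). Of 14 regulators 2 were higher and 2 lower: among them Ahr, the aryl hydrocarbon receptor, had 40.47 CPM in Vehicle and 22.31 CPM in Control (0.86), Nfe2l3, a relative of NRF2, had 26.02 CPM in Vehicle and 49.6 CPM in Control (−0.93), and Mafk, a partner of such factors, had 31.34 CPM in Vehicle and 50.27 CPM in Control (−0.68). Nfe2l2, which encodes NRF2 itself and is named outside the naming rule, had 148.2 CPM in Vehicle and 122.9 CPM in Control and was not called (0.27, adjusted p = 0.169 by edgeR). None of the 110 tested genes of these 6 lists was called after UCPRP or UCS against Vehicle by edgeR, DESeq2 or limma-voom.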

How the data were processed

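RNA was total RNA of mouse cornea, 12 libraries, prepared with a TruSeq stranded kit per the labels' protocols. HISAT and GRCm38 are named in the submitters' processing notes; the counter, annotation and strand setting were not named in the sources used here. Estimated counts of reads, unscaled, are what the authors deposited; 64.9% of them were whole numbers, and all were rounded. Because reads could be divided between features, near-identical genes, and genes overlapping on opposite strands, are uncertain. Genes were filtered with filterByExpr (minimum count 10), scaled by TMM and tested with edgeR 4.0.16 in R 4.3.3 (robust quasi-likelihood F test, 1 term per group over all 12 libraries, 6 comparisons), with Benjamini-Hochberg adjustment over 16124 genes and calls at an adjusted p under 0.05. The script was tested on simulated counts. The SE is the absolute log2 fold change over the square root of F. CPM are counts over TMM-scaled totals.

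Genes matched RefSeq GRCm38.p6 coordinates by Entrez identifier (46 of 46); exon lengths and shared 75-base stretches came from GENCODE vM21 transcripts, matched by symbol. Nothing says that replicate pools differ in cage or day, so p-values measure the spread between these pools. The members and lists were chosen with earlier results of these data known. Values in each Vehicle and Control library are given for members called by at least 1 on the log2 scale in Vehicle against Control. The same holds for the 6 most abundant members. Values in the treated libraries are given for only some of these. Other genes with values per library were chosen after the values were seen. Of each pathway list up to 3 called genes with the largest change are named. DESeq2 1.42.0, limma-voom (limma 3.58.1), other scaling, no filter, unrounded counts, lens, retina and clock terms, a replicate block, 2-group fits and leaving out each library were the alternatives.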

Additional observations from a re-analysis of the deposited data

How the results depend on the processing

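Of the 14 genes called in Vehicle against Control, 7 kept direction and call in all 22 alternative settings fitted with both clock phases: Aldh18a1, Aldh1a1, Aldh1a3, Aldh1l2, Aldh3a1, Gsta2 and Gstp3. The count of higher members was 4 in each of the 22. The count of lower members, 10 in the reported fit, was 6 with clock phase as a term, 5 with only the 2 groups compared, and 4 to 11 on leaving out 1 library, the smallest without Vehicle replicate 2 (4), Control replicate 2 (5) and Vehicle replicate 1 (6). The share of all genes called was 16.5% in the reported fit, 13.8% with the clock term and 11.2% in the 2-group fit. It was 11.9% without Vehicle replicate 2, 13.8% without Control replicate 2 and 12.2% without Vehicle replicate 1. Fits restricted to a single clock phase were chosen after seeing the data, with a lone library on 1 side assumed to vary like the rest. In each, fewer members and fewer of all genes were called than in the reported fit. Gsta4 lost its call without Vehicle replicate 2 and Aldh6a1 in the 2-group fit. The log2 fold change of Aldh3a1 stayed between −3.86 and −3.06 over all settings, and its call was lost among the Arntl-high libraries, 2 Vehicle and 1 Control.

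For UCS against Control, the higher count (3) was 5 with DESeq2, 1 and 0 in the restricted clock phases and 2 to 4 on leaving out 1 library. The lower count (3) was 6 with DESeq2, 7 with the lens term, 6 with the retina term, 1 in the 2-group fit, 0 in the Arntl-high libraries and 1 to 4 on leaving out 1 library (1 without Control replicate 1, Control replicate 2 or UCS replicate 3). For UCPRP against Control, the higher count (2) was 4 with DESeq2, 1 in the 2-group fit, 1 in the Dbp-high libraries and 1 to 3 on leaving out 1 library (1 without UCPRP replicate 1 or 2); the lower count (1) was 5 with DESeq2, 5 with the lens term, 2 with the retina term and 1 to 2 on leaving out 1 library (2 without Control replicate 3, UCS replicate 1 or UCS replicate 3). The share of all genes called for UCS against Control was 10.9% in the reported fit and 14.1% with DESeq2. It was 10.1% with the lens term, 15% with the retina term and 7.71% in the 2-group fit. For UCPRP against Control these shares were 10.4%, 14.2%, 10.9%, 12% and 7.52%, in the same order. The causes were not tested. No alternative called a member in UCS or UCPRP against Vehicle or in UCPRP against UCS. Without Vehicle replicate 3, 195 of all genes (1.2%) were called in UCPRP against Vehicle and 37 (0.227%) in UCS against Vehicle. Apart from that fit and DESeq2, the alternatives fitted with both clock phases called 0 of all genes in these 3 comparisons. Uncalled differences of Aldh3a1 changed sign in 2 settings: UCS against Vehicle was −0.17 in the Dbp-high libraries (0.65 in all), and UCPRP against UCS was −0.035 without UCS replicate 3 (0.23 in all; −0.035 to 0.499 on leaving out 1 library).

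Same-numbered libraries deviated together in no comparison across all 3 numbers: correlations were −0.62, −0.60 and −0.17 in Vehicle against Control, 0.37, 0.29 and −0.15 in UCS against Vehicle, 0.54, −0.03 and −0.15 in UCPRP against Vehicle, and also of both signs in the other 3, so the numbers were not taken as pairs. With a replicate block 4 higher and 7 lower members were called in Vehicle against Control. In UCS against Control 2 higher and 2 lower were called (Aldh1l2 and Gsta2 were lost), and in UCPRP against Control 1 higher and 1 lower (Mgst2 was lost). Over all genes the replicate block called 14.3%, 9.26% and 8.7% in these comparisons, in the same order.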
